A study of Mus musculus with 6 samples.

Results

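Genes of the EYA-SIX-DACH network were followed in SLK-knockout and SLK wild-type mouse cells, on 3 arrays per genotype. The set comprised 9 genes, namely Eya1, Eya2, Eya3, Eya4, Six2, Six4, Six5, Dach1 and Dach2, out of 22180 genes tested. The genes were chosen by family name and read by the probe set with the highest mean over the 6 arrays, a choice blind to genotype. Each of the 9 had a single probe set. The set was put together with the large Eya4 difference between the genotypes already known, so that difference is given as a description with its error and no p, and the other differences are no independent support for it.

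All 6 arrays came from untreated, NeuNDL-transformed cells grown in medium with a mammary epithelial supplement. NeuNDL is an activated Neu (ErbB2) receptor tyrosine kinase, and the cells of both groups are described as transformed by it. The groups differed in genotype for Slk, which encodes a Ste20-like kinase involved in focal adhesion turnover and migration. The series names passages 9, 19 and 29, but the labels link no array to a passage, a clone or a line. Nor do the labels give the deleted part of Slk or the promoter that drives NeuNDL. Whether the 3 arrays of a genotype are separate cultures is not stated, and p-values measure only the spread between these arrays.

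EYA proteins are transcriptional coactivators that also carry a protein tyrosine phosphatase activity in their conserved C-terminal domain. They do not bind DNA by themselves and are brought to it by homeodomain proteins of the sine oculis family, to which Six2, Six4 and Six5 belong, while DACH proteins, relatives of the SKI corepressors, act with the same complexes and commonly repress. The network is best known from the development of eye, ear, kidney and muscle, and several of its members have been studied in breast cancer.

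The values were taken as log2 signals, on which a difference of 1 is a doubling, though the log base is not stated. A level of one probe set cannot be set against that of another. The arrays had medians of 3.93 to 3.97 and correlated with each other at r of 0.990 to 0.994. Slk was read first as a check of the labels, and its log2 signal was 8.28 ± 0.07 (SD, n = 3) in wild-type and 7.18 ± 0.03 (SD, n = 3) in knockout cells, 2.15-fold lower. Group means of the 6 measured epithelial markers lay between 7.33 and 10.6. Of these, limma called Krt14 (log2 fold change -0.66) and Cdh1 (-0.43) lower. Epcam (-0.35) had every knockout array below every wild-type array but was not called (adjusted p = 0.083). Krt8 (0.15) and Krt18 (0.14) had every knockout array above every wild-type array and were not called, and Erbb2 (-0.05) overlapped. The Cdh1 call was lost whichever array was left out, with adjusted p of 0.098 to 0.13, and with the mean of its probe sets. Leaving out 1 array lost the Krt14 call in 5 of the 6 cases, all but wild-type array 1. Both calls were also lost with arrays of the same number blocked together (limma, adjusted p = 0.19 for Cdh1 and 0.11 for Krt14). In these bulk cultures fewer cells of a type and less RNA per cell cannot be told apart.

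Within the EYA family Eya4 and Eya2 differed in opposite directions. Eya4, best known for its part in hearing and heart function, was lower in knockout cells, and Eya2, a family member studied in breast cancer and muscle, was higher. Eya3, the broadly expressed member, and Eya1, known from ear and kidney development, did not pass the threshold. A gene is called higher or lower where its adjusted p in limma, fitted on all 22180 genes, was under 0.05.

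Eya4 (probe set 17239719) had log2 signals of 6.91, 6.83 and 6.84 on the wild-type arrays and 5.55, 5.70 and 5.75 on the knockout arrays. Every knockout array lay below every wild-type array, by more than the spread within either group. The group means were 6.86 ± 0.05 and 5.67 ± 0.10 (SD, n = 3 each). The log2 fold change, knockout minus wild-type, was -1.19 (SE 0.07, 95% interval -1.35 to -1.03), a 2.29-fold lower signal. The size of the fall varied little when single arrays were left out, with log2 fold changes of -1.23 to -1.14.

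Eya2 (probe set 17379692) had log2 signals of 4.63, 4.73 and 4.51 on the wild-type arrays and 5.34, 5.25 and 5.20 on the knockout arrays. All knockout arrays were above all wild-type arrays. The means rose from 4.63 ± 0.11 to 5.26 ± 0.07 (SD, n = 3 each), a log2 fold change of 0.64 (SE 0.07, 95% interval 0.46 to 0.82) or 1.56-fold. In the limma fit across all genes the adjusted p was 0.029. That call was lost whichever array was left out, with adjusted p of 0.074 to 0.14, while the log2 fold change stayed between 0.58 and 0.69.

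Eya3 (probe set 17419443) had log2 signals of 7.75, 7.67 and 7.82 in wild-type and 7.75, 7.79 and 7.73 in knockout cells. The groups overlapped, and the log2 fold change of 0.01 (SE 0.06) had a 95% interval of -0.12 to 0.15, so that changes as large as those of Eya2 or Eya4 lay outside it. The estimate changed sign when wild-type array 2 or knockout array 2 was left out.

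Eya1 (probe set 17221375) was dim, with log2 signals of 3.46, 3.64 and 3.57 in wild-type and 3.57, 3.90 and 3.71 in knockout cells. The groups overlapped and the log2 fold change of 0.17 (SE 0.10, 95% interval -0.06 to 0.40) did not pass (limma, adjusted p = 0.63). Dim signals compress changes, so the size of a difference in Eya1 RNA is not given by this value.

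**Figure D1:**
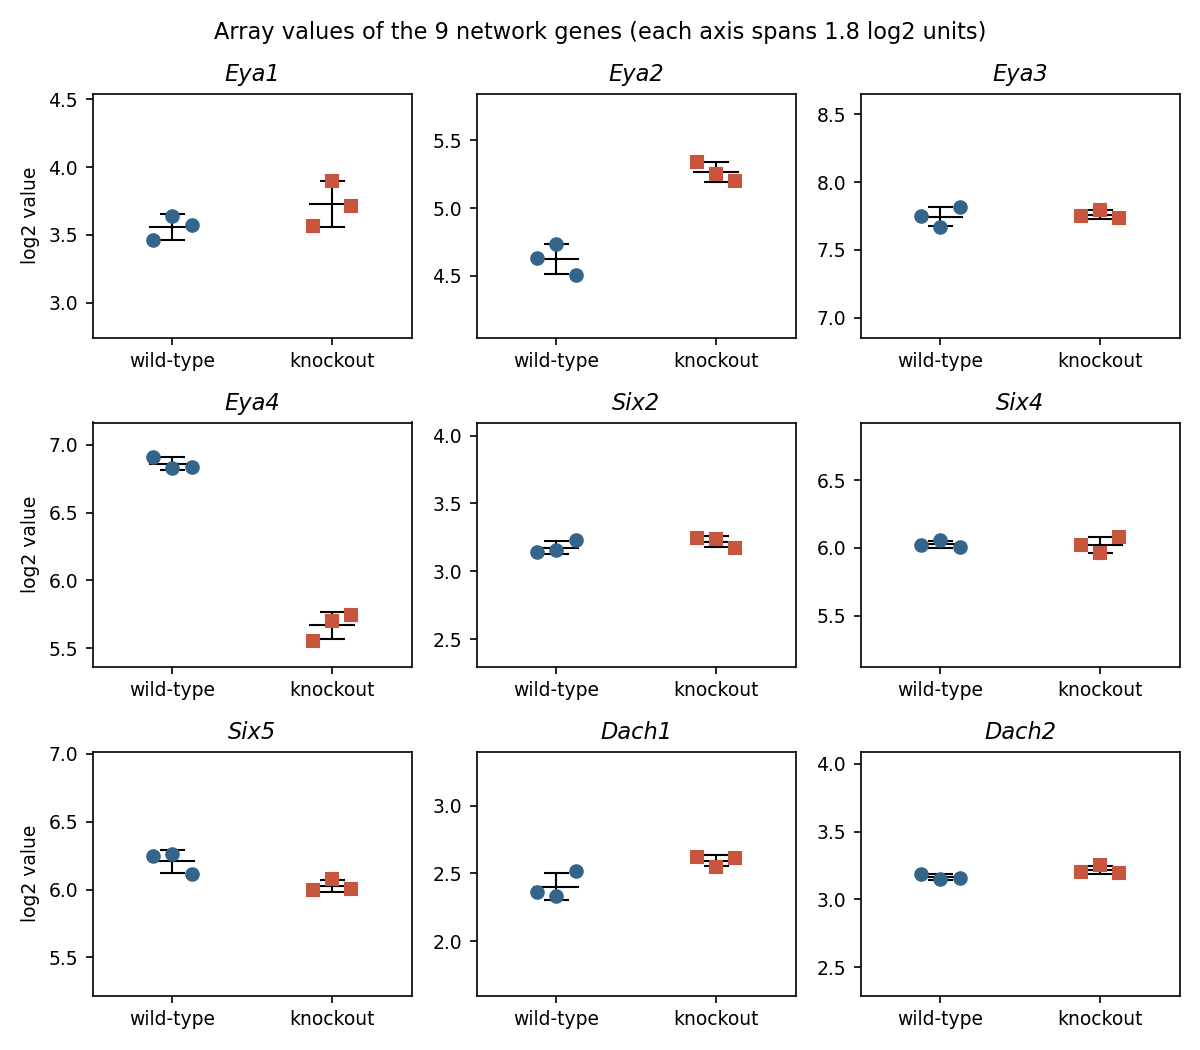
Log2 signals of the 9 genes on the 3 wild-type arrays (blue circles) and the 3 knockout arrays (red squares), with the mean (wide bar) and SD (capped bar) of each genotype. Each panel spans 1.8 log2 units around its own centre, so shifts between the groups but not heights compare between genes. Eya4 fell from a mean of 6.86 to 5.67 and Eya2 rose from 4.63 to 5.26, and the other 7 genes moved by less than 0.2.

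Because the family members went opposite ways, the difference between their signals narrowed. The Eya4 signal minus the Eya2 signal was 2.28, 2.09 and 2.33 log2 units on the wild-type arrays and 0.21, 0.45 and 0.55 on the knockout arrays. The mean went from 2.23 ± 0.12 to 0.40 ± 0.17 (SD, n = 3 each), a shift of -1.83 log2 units. This is the Eya4 log2 fold change minus that of Eya2, so it restates the difference with which the set was chosen and is no further result. These differences mix the brightness of separate probe sets, so their shift between genotypes can be read, and not which gene had more RNA.

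The start regions of Eya4 and Eya3 are shown because they belong to the EYA genes with the largest and the smallest difference between the genotypes. Each runs 5′ to 3′ along the gene's strand from 250 bases before the annotated start to 50 after it, in GRCm38.p6, and capitals mark GC boxes (GGGCGG on either strand). RefSeq gives 2 overlapping windows for Eya4, from separate starts, and the upstream one is shown. It is chr10:23349894-23350193 on the minus strand, and the Eya3 window is chr4:132638796-132639095 on the plus strand. No measurement of these arrays was made at the promoters.
Eya4: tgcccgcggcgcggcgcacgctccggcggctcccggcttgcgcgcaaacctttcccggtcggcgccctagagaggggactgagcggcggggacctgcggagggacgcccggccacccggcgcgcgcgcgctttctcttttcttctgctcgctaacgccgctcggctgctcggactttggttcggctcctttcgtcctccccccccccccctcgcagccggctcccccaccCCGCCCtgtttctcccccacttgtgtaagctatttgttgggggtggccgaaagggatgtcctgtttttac
Eya3: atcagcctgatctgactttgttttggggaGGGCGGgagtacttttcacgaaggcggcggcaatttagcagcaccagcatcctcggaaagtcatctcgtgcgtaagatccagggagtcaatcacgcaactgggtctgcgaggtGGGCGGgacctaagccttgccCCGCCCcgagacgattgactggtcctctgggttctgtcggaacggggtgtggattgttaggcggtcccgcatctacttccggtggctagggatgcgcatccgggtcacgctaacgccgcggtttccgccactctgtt

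The Eya4 window shown held 36 CpG dinucleotides and 69.3% G and C, the other Eya4 window 28 and 64%, and the Eya3 window 25 and 59.3%, against medians of 7 and 52.7% over 32851 promoter windows of the same length. Promoter sequences matched 7 of the 9 genes (all but Eya1 and Eya2), with 10 windows in all. The GC box stood in at least 1 window of 6 of the 7 genes, and in 8 of the 10 windows against 35.7% of all windows. The overlapping windows of Eya4 share their GC box, and so do those of Six4. The core of the MEF3 site, TCAGGTT on either strand, is bound by sine oculis homeodomain proteins. This core stood in 1 of the 10 windows, against 4.07% of all windows. That was the window of the downstream Six4 start, and the other Six4 window lacked the core. Neither of the Eya4 windows held it, and nor did the Eya3 window. Absence means only that the window lacks these letters.

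The sine oculis homeobox genes encode the DNA-binding partners of EYA proteins, and none of the 3 members passed the threshold. Six4, which acts in muscle development, had log2 signals of 6.02, 6.06 and 6.01 in wild-type and 6.02, 5.96 and 6.08 in knockout cells. Its log2 fold change of -0.01 (95% interval -0.13 to 0.12) turned positive with quantile normalization, and the groups overlapped.

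Six5, whose gene lies beside Dmpk in the myotonic dystrophy region, had log2 signals of 6.25, 6.27 and 6.11 in wild-type and 5.998, 6.08 and 6.001 in knockout cells. The knockout arrays lay below the wild-type arrays, with a narrow gap between 6.08 and 6.11. The log2 fold change was -0.18 (SE 0.06, 95% interval -0.33 to -0.03), with an unadjusted p of 0.023 and a limma adjusted p of 0.39 over all genes.

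Six2, a factor of nephron progenitor cells, was dim, at 3.14, 3.15 and 3.23 in wild-type and 3.25, 3.24 and 3.17 in knockout cells on the log2 scale. The groups overlapped, with a log2 fold change of 0.04 (95% interval -0.08 to 0.17). The related genes Six3, next to Six2 on the chromosome, and Six6 were dim as well and had log2 means of 3.59 to 3.65 in either genotype. Their log2 fold changes were 0.02 (SE 0.09) and 0.01 (SE 0.05), and neither had a limma p under 0.05 before adjustment.

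Both DACH genes gave dim signals, so that little can be read from their sizes. Dach1, studied as a growth-restraining factor in breast cancer, had log2 signals of 2.36, 2.33 and 2.52 in wild-type and 2.62, 2.55 and 2.62 in knockout cells. The knockout arrays were all higher, by a log2 fold change of 0.19 (SE 0.07, 95% interval 0.03 to 0.35). Its unadjusted p was 0.024 and its limma adjusted p 0.39.

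Dach2, the other family member, had log2 signals of 3.19, 3.15 and 3.15 in wild-type and 3.20, 3.25 and 3.20 in knockout cells. The groups were separate only narrowly, since the highest wild-type array read 3.191 and the lowest knockout array 3.196. The log2 fold change of 0.05 (SE 0.05, 95% interval -0.06 to 0.16) did not pass (limma, adjusted p = 0.78).

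**Figure D2:**
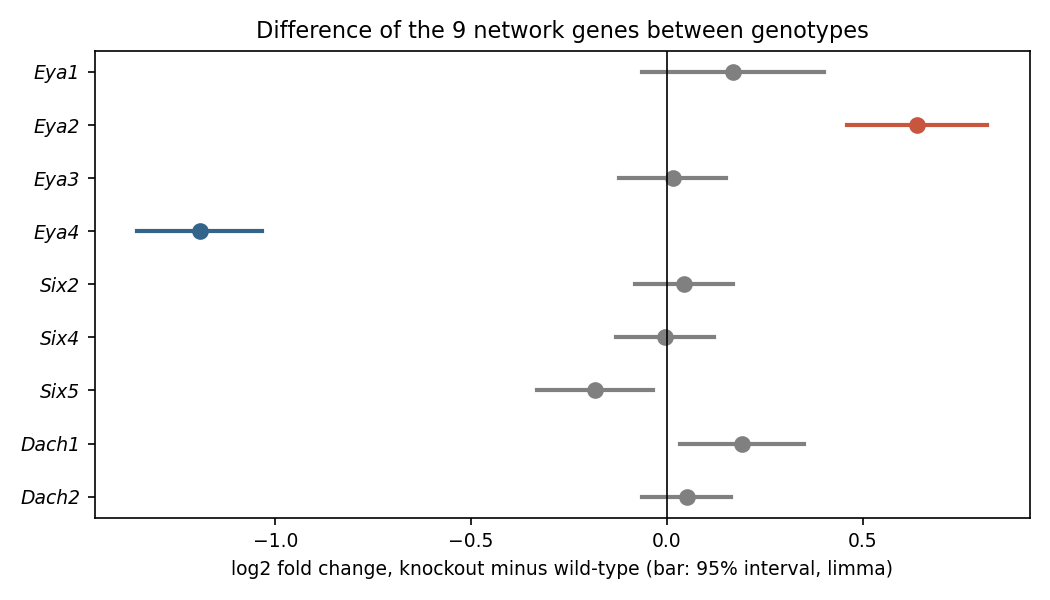
Log2 fold change, knockout minus wild-type, of each of the 9 genes (points) with its 95% interval from limma (bars). Red marks a gene past an adjusted p of 0.05 over all genes. Blue marks Eya4, with which the set was chosen. Eya4 stands at -1.19 and Eya2 at 0.64, and the intervals of Eya1, Eya3, Six2, Six4 and Dach2 span 0.

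Of the 8 genes other than Eya4, 1 (Eya2) was called higher and 0 lower by limma, where 0.325% of all genes tested were called higher and 0.113% lower. An unadjusted p under 0.05 was found for 3 of the 8 (Eya2, Six5 and Dach1) and for 10.2% of all genes. Knockout arrays lay wholly above wild-type arrays for 3 of the 8 (Eya2, Dach1 and Dach2) and wholly below for 1 (Six5). Over all genes such separation was seen for 8.79% and 8.1%. As the genes were brought together with results in view, nothing is read from these counts. The median log2 fold change was 0.04 over all 9 genes and 0.00377 over all genes tested.

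Genes that work with the network were taken from wider lists, put together with earlier results of these data known. Of 9 PAX genes, which stand upstream of the EYA-SIX genes in several organs, limma called 0, and 1 had an unadjusted p under 0.05, a share close to the 10.2% of all genes. That was Pax2, a kidney and ear regulator, which differed by 0.13 on the log2 scale (SE 0.05, adjusted p = 0.45), followed by the muscle stem cell factor Pax7 with 0.16 (SE 0.07). The PAX genes were dim, with log2 group means of 2.91 to 4.49, and their median log2 fold change was 0.07.

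Of 13 measured DACH relatives and corepressors limma called 0, and 0 had an unadjusted p under 0.05, against 10.2% of all genes. This list holds Ski and Skil, relatives of the DACH genes, with histone deacetylases, SIN3 scaffolds and Groucho-type TLE corepressors. Tle3 differed by -0.10 on the log2 scale (SE 0.05, adjusted p = 0.58) and Tle2 by 0.11 (SE 0.12). The median over the list was 0.02.

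Of 14 partners and phosphatase substrates of EYA-SIX proteins limma called 0, and 2 had an unadjusted p under 0.05, against 10.2% of all genes. Mef2c, a muscle and neural transcription factor, differed by -0.22 on the log2 scale (SE 0.07, adjusted p = 0.33). Wdr1, an actin-disassembly factor known as an EYA3 substrate, differed by 0.16 (SE 0.05, adjusted p = 0.33). The median over the list was -0.05.

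Of 23 measured genes linked to EYA-SIX factors as targets or downstream genes, often in other tissues, limma called 0, and 6 had an unadjusted p under 0.05, against 10.2% of all genes. The matrix metalloprotease gene Mmp9 went from 4.37 ± 0.11 to 4.97 ± 0.11 (SD, n = 3 each), a difference of 0.60 (SE 0.08, adjusted p = 0.054). Ret, the receptor for GDNF-family ligands, went from 5.76 ± 0.08 to 6.25 ± 0.09 (SD, n = 3 each), a difference of 0.49 (SE 0.07, adjusted p = 0.057). Both had every knockout array above every wild-type array and both missed the threshold. Of the others with an unadjusted p under 0.05, Sall1 (0.35) was higher in knockout cells, and Gata3 (-0.20), Myc (-0.13) and Pou4f1 (-0.28) were lower. The cyclin D1 gene Ccnd1, a frequently cited target, had a log2 fold change of -0.01 (95% interval -0.12 to 0.10). The median over the list was 0.05.

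**Figure D3:**
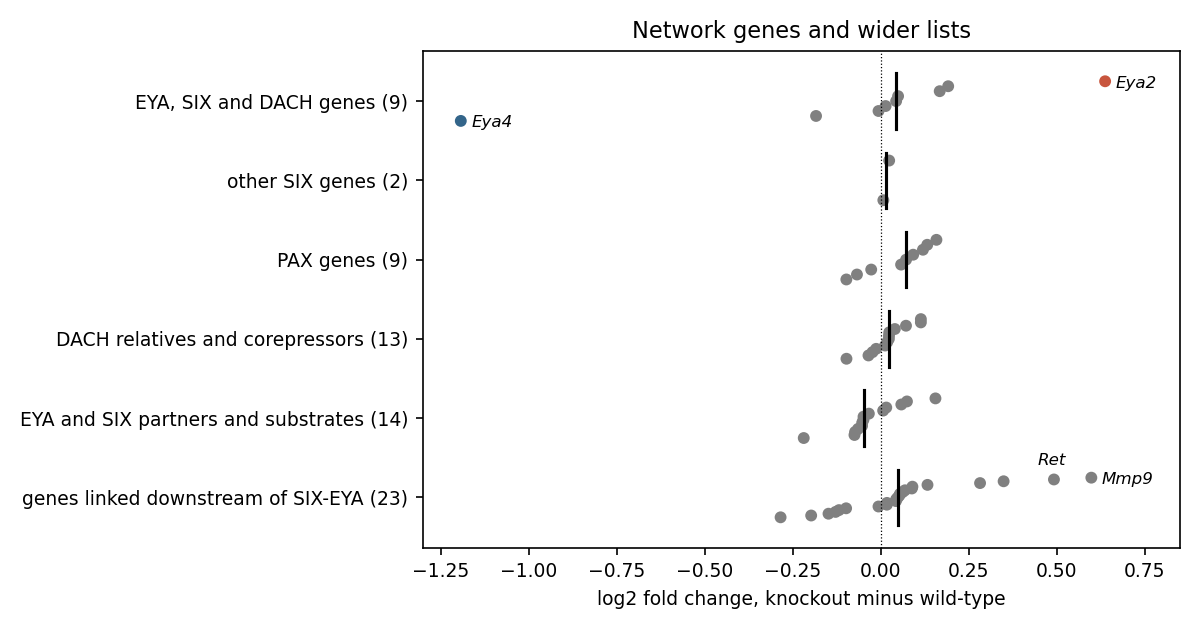
Log2 fold changes, knockout minus wild-type, of the 9 EYA-SIX-DACH genes and of the wider lists, with 1 point a gene, the number of measured genes in brackets and the list's median as a black bar. Red marks genes past an adjusted p of 0.05 in limma over all genes, and blue marks Eya4, with which the set was chosen. Only Eya2 is red, and Mmp9 (0.60) and Ret (0.49) lie farthest right among the other genes drawn.

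The chromosomal surroundings of Eya4 were read from the 8 nearest measured genes on chromosome 10, 4 on either side. They lie 5 to 10 steps away in the RefSeq gene order, and the genes between were not analysed here. Limma called 0 of the 8, where 0.325% of all genes were called higher and 0.113% lower. An unadjusted p under 0.05 was found for 1 of the 8, against 10.2% of all genes. Their log2 fold changes lay between -0.06 and 0.13. Tcf21, a mesenchymal transcription factor gene on one side, had 0.11 (SE 0.14), and Rps12, a ribosomal protein gene on the other, had -0.02 (SE 0.05). Since Eya4 was known for its large difference, its distance from these values is no finding.

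**Figure D4:**
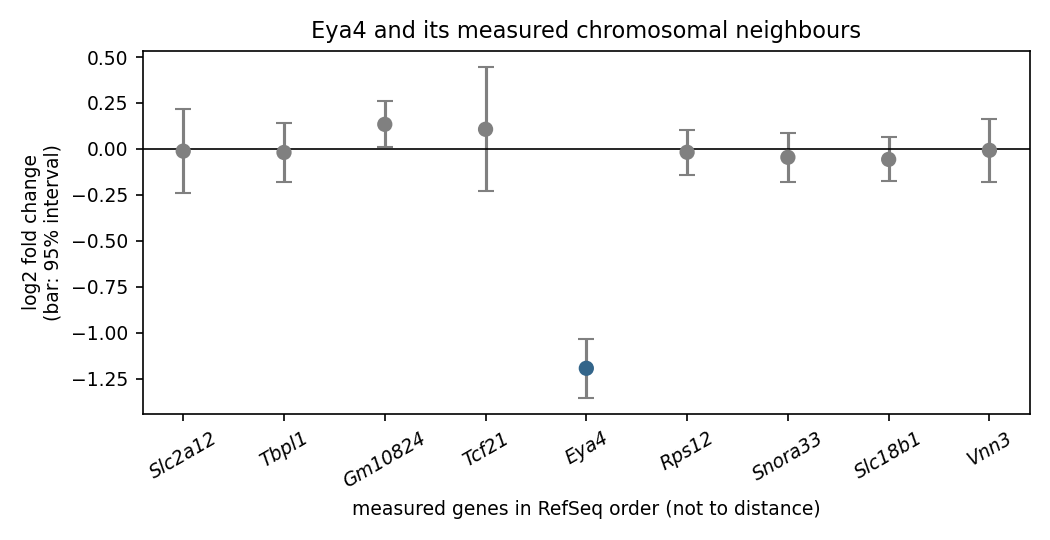
Log2 fold change, knockout minus wild-type, of Eya4 and the 4 nearest measured genes on either side, in gene order and not to distance, with 95% intervals from limma. Eya4, in blue, is at -1.19 and the 8 neighbours lie between -0.06 and 0.13.

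The genes whose signal most resembled that of Eya4 were sought among 331 other genes that spanned at least 0.8 log2 units over the 6 arrays. Pearson's r over the 6 arrays was highest for Slk itself (0.99), then for Adgrl2, an adhesion G protein-coupled receptor (0.98), Vtcn1, an immune checkpoint ligand (0.97), and Slc1a3, a glutamate transporter (0.97). It was lowest for the chemokine gene Ccl9, the mast cell protease gene Mcpt8, Fam107a and the glutamate receptor gene Gria3, with r of -0.997, -0.997, -0.997 and -0.996. These values describe 6 arrays that share the split by genotype, and any gene with a large and even difference between the genotypes takes a high r.

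Markers of other cell types were read beside the Eya4 and Eya2 differences. The summed signal of 7 skeletal muscle markers, a tissue in which the network is active, was 7.25 to 7.33 in wild-type and 7.39 to 7.48 in knockout cells on the log2 scale. Limma called 0 of the 7, and 1 had an unadjusted p under 0.05, against 10.2% of all genes. That was Myf5, which was lower in knockout cells (log2 fold change -0.23), against the direction of the sum. Ckm (-0.17) was lower too, and the other 5 had a higher mean. Taken singly, each of the 7 overlapped between the genotypes. The log2 group means of the 7 lay between 3.79 and 5.36. The sum of 7 fibroblast markers was 9.27 to 9.34 in wild-type and 9.17 to 9.19 in knockout cells, with 1 of 7, Pdgfrb, called lower (log2 fold change -0.67). That call was lost without wild-type array 2 (limma, adjusted p = 0.0503) and with arrays of the same number blocked together (0.11). Col1a1 (-0.33) and Col1a2 (-0.19) had every knockout array below every wild-type array and were not called. Dcn (0.43) and Pdgfra (0.10) had every knockout array above every wild-type array and were not called, and Lum (-0.15) and Thy1 (0.04) overlapped. For 5 measured Schwann and neural crest markers the sum was 7.49 to 7.63 in wild-type and 7.83 to 8.001 in knockout cells. Limma called 1 of the 5, Sox10, higher (log2 fold change 1.47). That call was lost without wild-type array 1 (adjusted p = 0.052) or knockout array 3 (0.062), and with arrays of the same number blocked together (0.085). Erbb3 (0.12) and Ednrb (0.15) had every knockout array above every wild-type array, S100b (-0.14) had every one below, and Foxd3 (-0.10) overlapped. None of these was called. The sums of 6 leukocyte and 7 endothelial markers overlapped between the genotypes. The leukocyte sum was mostly Cd68, so it says little of the other, dim markers. Limma called 0 in either list. An unadjusted p under 0.05 was found for 2 of 6 and 3 of 7, against 10.2% of all genes. Tyrobp (0.29) had every knockout array above every wild-type array. Cd52 (-0.30), Kdr (-0.32) and Tek (-0.22) had every one below, and Cldn5 (0.17) overlapped. The part of these cell types in the Eya4 and Eya2 differences was not tested.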

How the data were processed

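Total RNA from 6 samples was biotin-labelled and measured on 1-colour arrays. The deposited table holds 41345 probe sets per array as log2 values, which the authors made with Affymetrix Expression Console 1.4.1.46, per the submitters' processing notes. For background correction, normalization and log base the labels and files give nothing. The highest value, 12.4, was taken to mean log2. Without detection calls a dim value is no proof of absence, and dim values compress fold changes. The number of arrays limits the precision.

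Of the probe sets 23521 had 1 gene symbol in the platform table, 1814 had several and 16010 were not listed. Keeping the brightest probe set of each symbol gave 22180 genes. Samples were grouped by title, and knockout was compared with wild-type in limma 3.58.1 (R 4.3.3) with Benjamini-Hochberg adjustment over all genes, a threshold of 0.05 and no filter or covariate. Every p is from this two-sided test, and SE and 95% intervals are its moderated ones. The fit was tested on simulated data.

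Members and lists were chosen with earlier results of these data known. Named were the 9 members, Slk, each list's called genes or the 2 of smallest p, the 4 genes most and least correlated with Eya4 (without uncharacterised, olfactory and small RNA genes) and 4 measured neighbours on either side. Ccnd1, Ski and Skil were named outside this rule, after their values were seen. The same holds for the markers Krt8, Krt18, Epcam, Erbb2, Dcn, Pdgfra, Col1a1, Col1a2, Lum, Thy1, Ednrb, Erbb3, Foxd3 and S100b. Likewise named were Myf5, Ckm, Cd68, Cd52, Tyrobp, Kdr, Tek and Cldn5. Sall1, Gata3, Myc and Pou4f1 were also named outside the rule, after their values were seen. Promoters and gene order are from RefSeq, GRCm38.p6. Alternatives were 2 normalizations, 2 filters on dim genes, means of probe sets, an intensity trend, array weights, a replicate block and leaving out each array.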

Additional observations from a re-analysis of the deposited data

How the results depend on the processing

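The log2 fold changes were -1.23 to -1.14 for Eya4 and 0.58 to 0.69 for Eya2 over the 9 alternatives that can move them. The filters on dim genes, the means of probe sets, the intensity trend and the replicate block leave these values as they are and change only their p. The Eya2 call was kept in 7 of the 14 alternatives and lost with the replicate block (limma, adjusted p = 0.15) and with each array left out. Eya4 chose the set, so called genes were counted among the other 8. That count was 1 (Eya2), where 0.325% of all genes were called higher and 0.113% lower. It stayed at 1 in the 7 alternatives that kept the Eya2 call and was 0 in the rest. Over all genes the replicate block gave 5 higher and 1 lower. Arrays that share a number did not deviate together, with correlations of 0.04, 0.02 and -0.07, so the numbers were not taken to pair the samples.

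Six4, at -0.01, had a log2 fold change of 0.010 with quantile normalization and of -0.034 to 0.023 with 1 array left out, and Eya3 had -0.022 to 0.050 in the latter. The other 5 genes kept their sign and were never called, though Six2, Dach1 and Dach2 were too dim for either filter, and Eya1 for the stricter one.

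From 72 higher and 25 lower, the calls over all genes became 143 and 63 after removing the dimmest 30%, 202 and 139 after removing the dimmest 50%, and 265 and 176 with an intensity trend. With 1 array left out they were 13 to 24 and 2 to 5. Fewer genes tested is part of the filters, and fewer arrays is part of leaving 1 out. The intensity trend used the same genes and arrays. The cause of these changes was otherwise not tested. Signals near the bottom of the scale limit what can be said of Six2, Dach1, Dach2 and Eya1.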
